A study of Arabidopsis thaliana with 24 samples.

Results

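AT4G11190 and AT4G11210 are a pair of Arabidopsis thaliana genes of the dirigent-like family that lie close together on chromosome 4. They were taken because their signal falls with the auxin indole-3-acetic acid (IAA), and each is read by 1 probe set of the array (254907_at for AT4G11190, 254909_at for AT4G11210). They are 2 of the 13286 genes that the platform annotation pairs with a probe set of their own, among 22810 probe sets in all. The fall with IAA chose them, so it is described below without a test, and the tests concern what the genotypes did to both genes.

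The arrays measured total RNA of whole seedlings grown for 7 days in shaken liquid medium (1.5% sucrose), with days of 16 h light and nights of 8 h. The genotypes were the nph4-1 arf19-1 double mutant, nph4-1, arf19-1 and the Columbia wild type (Col), and both mutant lines are in the Columbia ecotype. The nph4-1 allele is a mutation of ARF7 and arf19-1 a mutation of ARF19, transcription factors that switch on genes in response to auxin. Seedlings of each genotype received 5 µM IAA or the ethanol solvent (control) for 2 h at 24 °C, which gives 8 groups of 3 arrays. The mutations are present in every cell and throughout growth, so differences between genotypes include whatever the mutants had become by the time of treatment. Whether replicate arrays stand for separate cultures is not stated in the labels, so p-values measure the spread between these arrays, which may be technical.

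Dirigent proteins are secreted proteins that bind radicals formed from monolignols and steer which bonds, and which mirror form, arise when these couple. They are best known for directing the formation of lignans, and one member, ESB1, is needed for the lignin of the Casparian strip, the barrier in the wall of the root endodermis. What the products of AT4G11190 and AT4G11210 bind was not given in the sources used here. In the RefSeq gene order (assembly TAIR10.1) only 1 gene, the pseudogene AT4G11200, stands between them, and the next gene before AT4G11190 is AT4G11180, which carries the synonym dirigent protein 1. AT4G11200 was at the lower limit of the signal on all 24 arrays, and AT4G11180 had no probe set of its own in the annotation. Of the other named neighbours within 5 genes on either side, AT4G11160, AT4G11175 and AT4G11230 were tested, and with IAA in Col their log2 changes were 0.31, -0.18 and 0.44. AT4G11230 passed (SE 0.11, adjusted p = 0.00839, limma), where 6.33% of all probe sets were called higher, but not without Col control 2 (0.35, adjusted p = 0.0524). Its probe set was above the lower limit of the signal on 14 of the 24 arrays, so its change and SE may be cut by that limit. The probe sequences were not used here, so how far the probe set of one copy also reads the other was not tested.

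Values are the authors' log2 signals, which do not go below 5.64, the log2 of 50. The array medians lay between 6.645 and 6.758, 35.6% to 36.7% of the values of an array were at the floor, and any pair of arrays shared at most 0.0213% identical values above the floor. Both genes were above the floor on all 24 arrays, with AT4G11190 between 6.46 and 9.52 and AT4G11210 between 6.28 and 8.91. Col control 3 and nph4-1 IAA 1 were the noisiest arrays over all probe sets (limma array weights 0.185 and 0.144). A note in the labels says that corrected data were later supplied for Col control 2 and 3. Where leaving out 1 array changed a call, or moved a response to IAA by more than 1.5 times, the value without it is given.

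With IAA the mean of both genes was below that of the controls in every genotype, and by least in the double mutant. AT4G11190 had log2 signals of 7.28, 7.35 and 6.46 with IAA in Col, against 8.04, 8.96 and 8.23 in Col controls. The IAA arrays all lay below the control arrays, and the signal was 38.4% of the control level (log2 change -1.38, SE 0.22, n = 3 per group). In nph4-1 the values were 8.85, 8.53 and 8.56 with IAA, against 9.52, 9.26 and 9.29 in controls, a log2 change of -0.71 (SE 0.22). In arf19-1 they were 8.08, 7.88 and 8.01 with IAA, against 8.93, 8.80 and 8.98 in controls, a change of -0.91 (SE 0.22). The groups were apart in both single mutants as well, but the fall of AT4G11190 was smaller there. In nph4-1 arf19-1 the values were 8.62, 9.18 and 9.22 with IAA, against 9.06, 9.44 and 9.43 in controls. These groups overlapped, and the signal was still 81.0% of the control level (log2 change -0.30, SE 0.22). Without double-mutant IAA 1 the change was -0.11, and the values without each array ranged over -0.43 to -0.11. Between arrays of the same replicate number, which deviated together in these groups (r 0.183 to 0.501), the changes were -0.44, -0.26 and -0.21.

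AT4G11210 kept almost the whole fall in either single mutant. In Col its log2 signals were 6.66, 6.71 and 6.28 with IAA, against 8.16, 8.60 and 8.05 in controls, a change of -1.72 (SE 0.15) that left 30.3% of the signal. In nph4-1 they were 7.32, 7.17 and 7.21 with IAA, against 8.85, 8.76 and 8.91 in controls, a change of -1.61 (SE 0.15). In arf19-1 they were 7.21, 7.03 and 7.24 with IAA, against 8.68, 8.74 and 8.91 in controls, a change of -1.62 (SE 0.15). In these genotypes every IAA array lay more than 1 log2 unit below every control array. In nph4-1 arf19-1 the values were 7.26, 7.36 and 7.59 with IAA, against 7.51, 7.94 and 8.10 in controls, and the groups overlapped, with a change of -0.45 (SE 0.15) that left 73.3% of the signal. Between arrays of the same number the changes were -0.25, -0.58 and -0.51, so for both genes each IAA array of the double mutant was below the control array of its number. The groups of both genes were thus apart in 3 of 4 genotypes. Over all probe sets 6.52% were called lower with IAA in Col, 0.800% in nph4-1, 5.22% in arf19-1 and 0.0825% in nph4-1 arf19-1.

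**Figure D1:**
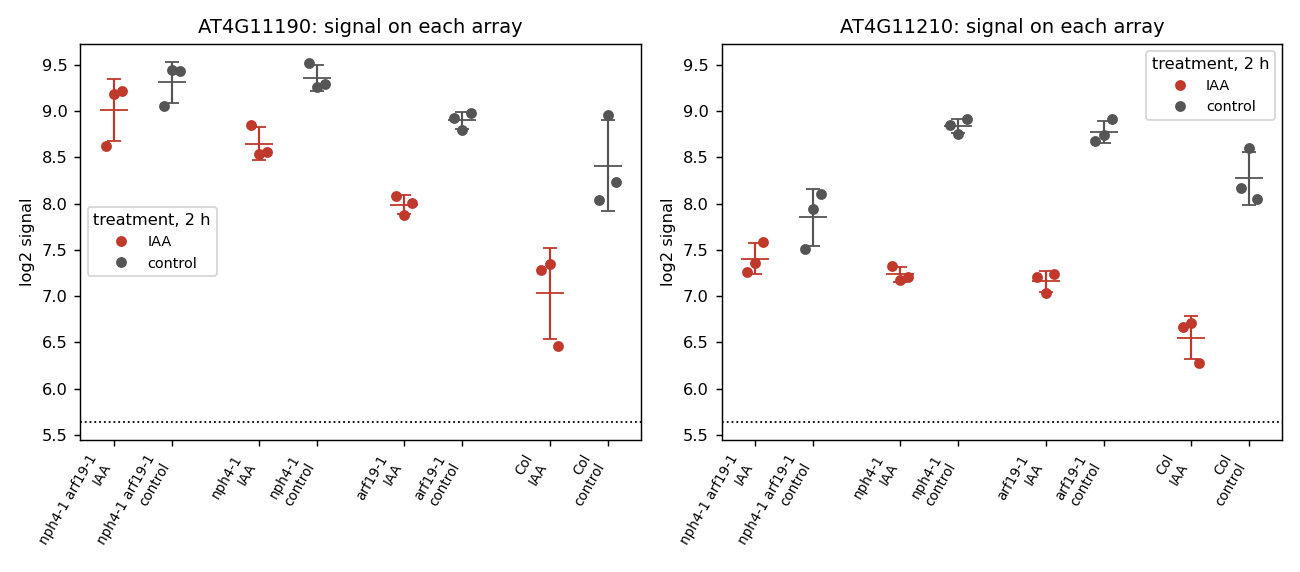
Log2 signal of AT4G11190 (left) and AT4G11210 (right) on each of the 24 arrays, IAA in red left of control in grey for each genotype; horizontal lines and bars are mean and SD of 3 arrays, and the dotted line is the floor of 5.64. The IAA arrays lie below the control arrays in nph4-1, arf19-1 and Col, and overlap with them in nph4-1 arf19-1 for both genes.

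**Figure D2:**
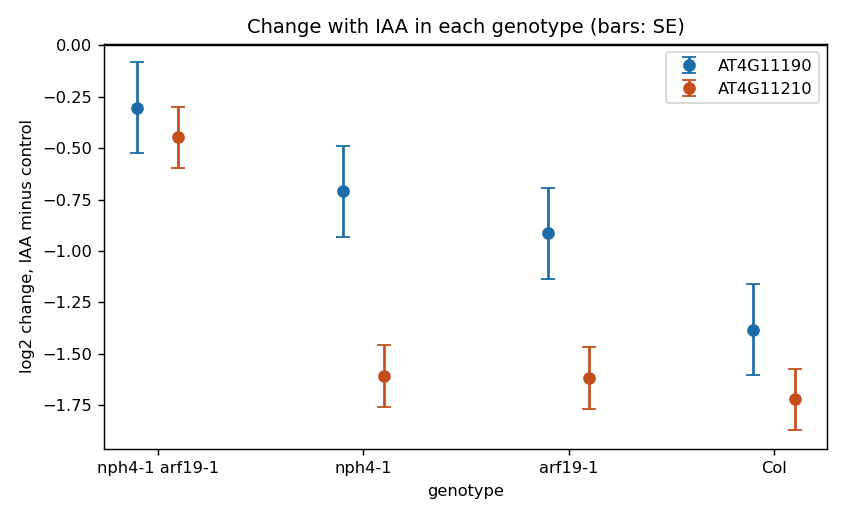
Log2 change, IAA minus control, of both genes in each genotype (points; bars are SE, 3 arrays per group). AT4G11190 runs from -0.30 in nph4-1 arf19-1 to -1.38 in Col, with both single mutants between, whereas AT4G11210 is -1.61 in nph4-1, -1.62 in arf19-1, -1.72 in Col and -0.45 in nph4-1 arf19-1.

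The next comparison asked whether the fall differed between mutants, with limma and Benjamini-Hochberg adjustment over all 15757 probe sets tested. The choice of the genes by their fall named no genotype. The falls in nph4-1 and arf19-1 may have entered it, so these p-values may be too small. For AT4G11210 the log2 response of nph4-1 arf19-1 was higher, that is the fall was smaller, by 1.16 than that of nph4-1 (SE 0.21, adjusted p = 0.0108) and by 1.17 than that of arf19-1 (SE 0.21, adjusted p = 0.00147). The first of these contrasts called 0.0952% of all probe sets as higher and the second 1.33%. The single mutants differed from each other by 0.010 for AT4G11210 (95% interval -0.43 to 0.45) and by 0.20 for AT4G11190 (SE 0.31, interval -0.45 to 0.86), neither of which passed, beside 1.94% of all probe sets. For AT4G11190 the response of nph4-1 arf19-1 was 0.41 above that of nph4-1 (SE 0.31, adjusted p = 1, interval -0.25 to 1.06) and 0.61 above that of arf19-1 (SE 0.31, adjusted p = 0.511, interval -0.041 to 1.26). The 2 calls of AT4G11210 held without any single array, with the adjusted p of the first between 0.00366 and 0.0498.

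Differences from the Col response get no test, because the fall in Col entered the choice of the genes. Against Col the response of nph4-1 arf19-1 was higher by 1.08 for AT4G11190 (SE 0.31) and by 1.27 for AT4G11210 (SE 0.21). The response of nph4-1 was higher by 0.67 for AT4G11190 and by 0.12 for AT4G11210. The response of arf19-1 was higher by 0.47 for AT4G11190 (95% interval -0.18 to 1.12) and by 0.11 for AT4G11210, with the same standard errors. For AT4G11190 these values leaned on single Col arrays: without Col control 2 they were 0.40 in nph4-1 and 0.19 in arf19-1, and without Col IAA 3 they were 0.39 and 0.18. For AT4G11210 the same omissions turned the sign of the single mutants' values, to -0.048 and -0.018 in nph4-1 and -0.058 and -0.029 in arf19-1.

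Without IAA the genes parted in the double mutant. AT4G11210 had log2 signals of 7.51, 7.94 and 8.10 on nph4-1 arf19-1 control arrays, below all control arrays of nph4-1 (8.76 to 8.91) and of arf19-1 (8.68 to 8.91). It was 0.99 lower than in nph4-1 (SE 0.15, adjusted p = 0.000451, limma), at 50.4% of the nph4-1 signal, and 0.92 lower than in arf19-1 (SE 0.15, adjusted p = 0.000391), at 52.7%. These contrasts called 1.57% and 3.50% of all probe sets as lower. AT4G11190 was at 9.06, 9.44 and 9.43 on the same double-mutant arrays. The first lay below the control arrays of nph4-1 (9.26 to 9.52) and the others lay among them. The difference of the double mutant from nph4-1 was -0.047 for AT4G11190 (SE 0.22, 95% interval -0.51 to 0.41). Against arf19-1 it was 0.41 higher in the double mutant (SE 0.22, adjusted p = 0.378), which did not pass.

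Against Col without IAA, AT4G11190 was 1.93-fold higher in nph4-1 (log2 0.95, SE 0.22, adjusted p = 0.0271, limma) and 1.87-fold higher in nph4-1 arf19-1 (0.90, SE 0.22, adjusted p = 0.00947). It had a difference of 0.49 in arf19-1 (SE 0.22, adjusted p = 0.311). Over all probe sets 1.21% were called higher in nph4-1, 7.03% in nph4-1 arf19-1 and 0.336% in arf19-1. The Col control arrays, which also entered the choice of the genes (favouring high values there), spread widely for AT4G11190, with Col control 2 at 8.96 and the others at 8.04 and 8.23. The call in nph4-1 ended without Col control 1 or 3 or without any 1 of the 3 nph4-1 control arrays (differences 0.76 to 0.99, adjusted p up to 0.114), and in a fit of these 6 arrays alone (adjusted p = 0.147). The call in nph4-1 arf19-1 ended without Col control 1 (0.71, adjusted p = 0.0631), without double-mutant control 2 (0.83, adjusted p = 0.0504) and in the fit of the 6 arrays alone (adjusted p = 0.0668). Without Col control 2 the difference of arf19-1 was 0.77 and passed (adjusted p = 0.0397).

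For AT4G11210 no difference from Col without IAA passed. Its values were 0.57 for nph4-1 (SE 0.15, adjusted p = 0.0502), 0.50 for arf19-1 (SE 0.15, adjusted p = 0.114) and -0.42 for nph4-1 arf19-1 (SE 0.15, adjusted p = 0.0666). The first lies at the edge of the threshold and passed without Col control 2 (0.73, adjusted p = 0.0068), Col IAA 3, nph4-1 IAA 1, or double-mutant control 1 or 3 (0.57 in each of these 4). The second passed without Col control 2 (0.67, adjusted p = 0.0159), and the third without Col control 3 (-0.53, adjusted p = 0.0461) or double-mutant control 3 (-0.55, adjusted p = 0.0423). Both single mutants thus had a value above that of Col and the double mutant a value below it. After these values had been seen, a contrast was added that sets the difference of the double mutant from Col against the sum of the differences of both single mutants. It was -1.49 for AT4G11210 (SE 0.21, adjusted p = 0.000435, limma), beside 1.59% of all probe sets called lower, and the call held without any single array. For AT4G11190 it was -0.54 (SE 0.31, adjusted p = 0.506). A call as lower here was not particular to AT4G11210, since 2 of 7 other dirigent genes tested had it too, as given below.

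With IAA every mutant array lay above every Col array for both genes, with Col at 6.46 to 7.35 for AT4G11190 and 6.28 to 6.71 for AT4G11210. The low Col IAA arrays belong to the fall that chose the genes, so these differences are given without a test. For AT4G11190 they were 1.98 in nph4-1 arf19-1, 1.62 in nph4-1 and 0.96 in arf19-1 (SE 0.22), which are 3.94-fold, 3.07-fold and 1.94-fold. For AT4G11210 they were smaller, 0.85 in nph4-1 arf19-1, 0.68 in nph4-1 and 0.61 in arf19-1 (SE 0.15). Over all probe sets 10.6%, 8.35% and 0.711% were called higher in these contrasts. Without Col IAA 3, the lowest array for both genes, the differences of AT4G11190 were 1.69, 1.34 and 0.68 and those of AT4G11210 were 0.72, 0.55 and 0.47.

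Among the mutants with IAA, AT4G11190 was graded. Its IAA arrays lay at 8.62 to 9.22 in nph4-1 arf19-1, at 8.53 to 8.85 in nph4-1 and at 7.88 to 8.08 in arf19-1. The double mutant was 2.03-fold above arf19-1 (log2 1.02, SE 0.22, adjusted p = 0.00222, limma), where 8.21% of all probe sets were called higher, and this held without any single array. It was 0.36 above nph4-1 (SE 0.22, adjusted p = 0.567), which did not pass. AT4G11210 with IAA was nearly level over the mutants, at means of 7.40 ± 0.17 in nph4-1 arf19-1, 7.23 ± 0.08 in nph4-1 and 7.16 ± 0.11 in arf19-1 (SD, n = 3). The double mutant differed from nph4-1 by 0.17 (95% interval -0.14 to 0.48) and from arf19-1 by 0.24 (interval -0.069 to 0.56), and neither passed, beside 2.86% and 15.4% of all probe sets called in either direction. Set against the single mutants, the smaller fall of AT4G11210 in the double mutant therefore went with a lower level without IAA. Its level with IAA differed from theirs by 0.17 and 0.24, with intervals that reach 0.48 and 0.56. Set against Col, its level in the double mutant was 0.85 higher with IAA and 0.42 lower without it.

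**Figure D3:**
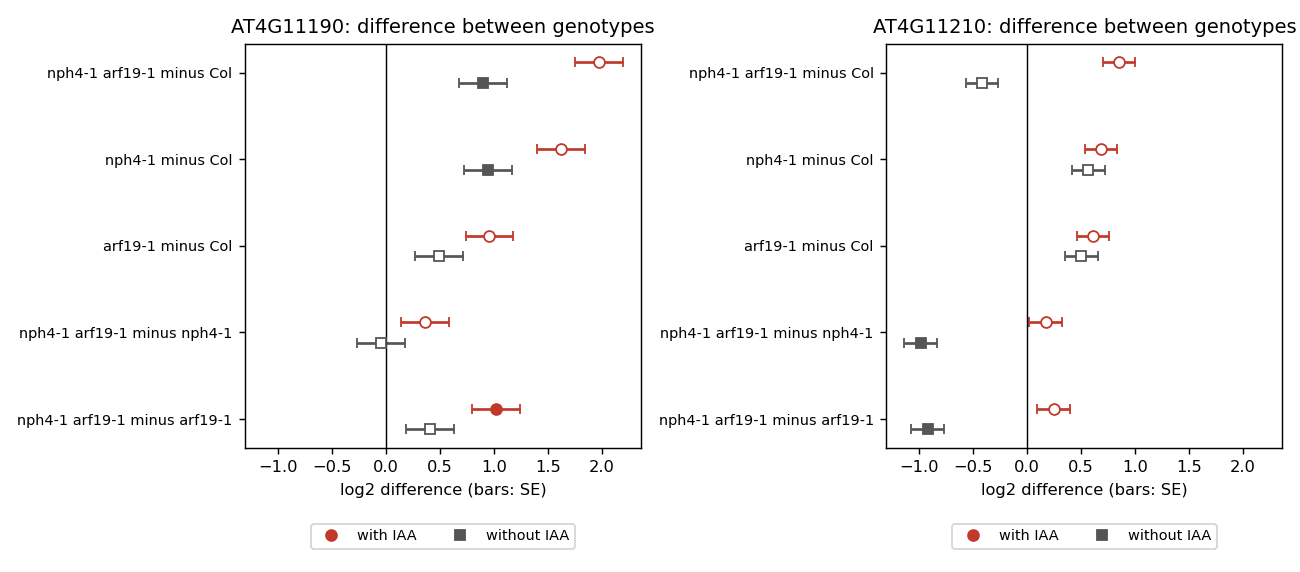
Log2 differences between genotypes for AT4G11190 (left) and AT4G11210 (right), with IAA (red circles) and without IAA (grey squares); bars are SE, and filled symbols have an adjusted p under 0.05; differences from Col with IAA have no test and are open. Without IAA the double mutant minus nph4-1 is -0.99 and minus arf19-1 is -0.92 for AT4G11210, against -0.047 and 0.41 for AT4G11190.

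In order of level, AT4G11190 ran from nph4-1 control (9.36 ± 0.14, SD) over nph4-1 arf19-1 control (9.31 ± 0.22), nph4-1 arf19-1 IAA (9.01 ± 0.33), arf19-1 control (8.90 ± 0.09), nph4-1 IAA (8.65 ± 0.18), Col control (8.41 ± 0.49) and arf19-1 IAA (7.99 ± 0.10) to Col IAA (7.03 ± 0.49). Each group overlapped with the next lower one, except that arf19-1 IAA lay apart from Col IAA. AT4G11210 ran from nph4-1 control (8.84 ± 0.08) over arf19-1 control (8.78 ± 0.12), Col control (8.27 ± 0.29), nph4-1 arf19-1 control (7.85 ± 0.30), the IAA groups of nph4-1 arf19-1, nph4-1 and arf19-1 (7.40, 7.23 and 7.16) to Col IAA (6.55 ± 0.23). Here arf19-1 control lay apart from Col control and arf19-1 IAA from Col IAA, and the other neighbours overlapped. Over the 8 group means the genes correlated with r = 0.717, and over the 6 groups without the double mutant with r = 0.861, as a description of points that share arrays.

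To follow both genes on the same array, the log2 signal of AT4G11210 was subtracted from that of AT4G11190. Its size has no meaning, since probe sets differ in brightness per transcript, but a change between arrays means that the genes moved unequally. On IAA arrays the difference was 1.36 to 1.82 in nph4-1 arf19-1, against 0.18 to 0.64 in Col, and on control arrays 1.33 to 1.55 in nph4-1 arf19-1, against -0.13 to 0.36 in Col. In nph4-1 it was 1.35 to 1.53 on IAA arrays and 0.38 to 0.67 on control arrays. In arf19-1 it was 0.77 to 0.87 on IAA arrays and 0.062 to 0.25 on control arrays. In both single mutants the IAA arrays thus lay above the control arrays, whereas those of the double mutant overlapped.

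The shift between genotypes was tested with an exact two-sided permutation within each treatment, which was added after the values had been seen, over 6 pairs of genotypes. The tests against Col hold the Col arrays of both treatments, whose fall entered the choice of the genes. Their p-values are therefore not free of that choice, and those between mutants may not be either. Averaged over both treatments the shift was 1.22 for nph4-1 arf19-1 against Col and 0.66 for nph4-1 against Col (exact p = 0.005 each, the smallest the 400 arrangements can give, adjusted p = 0.0075). It was 1.05 for nph4-1 arf19-1 against arf19-1 and 0.49 for nph4-1 against arf19-1 (exact permutation p = 0.005, adjusted p = 0.0075 for both). For nph4-1 arf19-1 against nph4-1 it was 0.57 (exact permutation p = 0.015, adjusted p = 0.018). That shift was 0.19 on IAA arrays and 0.94 on control arrays. The replicate numbers are taken to pair the arrays of these genotypes, but the permutation ignored them, and a paired form was not run. For arf19-1 against Col the shift was 0.17 (exact permutation p = 0.185), with 0.35 on IAA arrays, where all arf19-1 arrays lay above all Col arrays, and -0.011 on control arrays, where the groups overlapped. Within each treatment every nph4-1 and every double-mutant array had a larger difference between the genes than every Col array. That is a description of these arrays, since the Col arrays entered the choice of the genes.

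**Figure D4:**
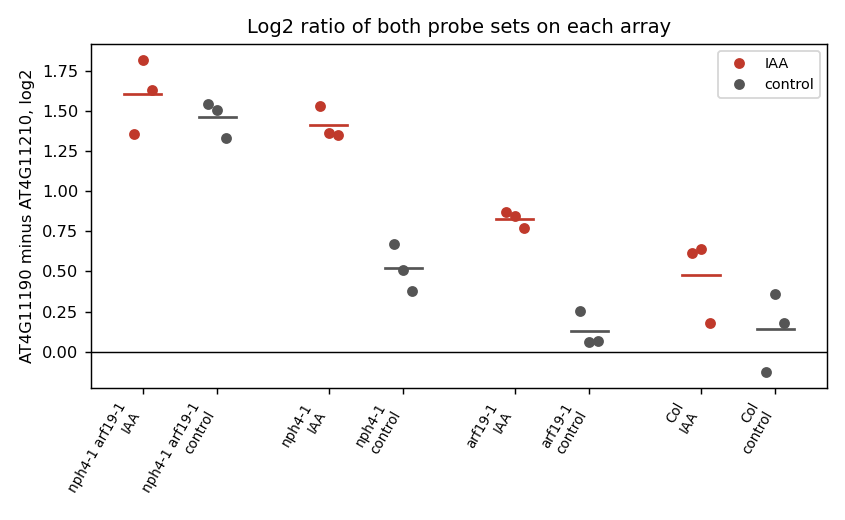
Log2 signal of AT4G11190 minus that of AT4G11210 on each array, IAA in red left of control in grey for each genotype; lines are group means. All 6 double-mutant arrays lie at 1.33 or above and all 6 Col arrays at 0.64 or below, and IAA arrays lie above control arrays in both single mutants.

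The rest of the dirigent family moved in other ways. Of 25 dirigent genes listed from knowledge of the family, 15 had a probe set of their own. AT2G21110, AT3G13662, AT4G38700, AT3G58090, AT1G65870 and AT3G13660 never exceeded the floor, and 7 were tested beside AT4G11190 and AT4G11210. With IAA in Col none of these 7 was called lower, beside 6.52% of all probe sets. Called higher were 2, AT1G58170 by 0.83 in log2 (SE 0.14, adjusted p = 0.000204, limma) and AT2G21100 by 0.48 (SE 0.14, adjusted p = 0.0304), beside the 6.33% of all probe sets called higher. The median of the 7 was 0.178, against 0.000 over all probe sets. The lowest was AT3G13650 at -0.23 (SE 0.13), which fell by 0.45 in arf19-1 (SE 0.13, adjusted p = 0.0298), a call that ended without arf19-1 control 1 or 2 or arf19-1 IAA 1 or 2 (adjusted p up to 0.168). The call of AT2G21100 ended without Col control 3 or Col IAA 1 or 2 (0.38 to 0.46, adjusted p up to 0.162).

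AT1G58170 was the member of these 7 whose IAA response differed between mutants and Col. Its log2 signal was 6.90 ± 0.10 with IAA, against 6.06 ± 0.31 in controls of Col, and in nph4-1 arf19-1 it was 6.40 ± 0.12 with IAA, against 6.68 ± 0.21 in controls (SD, n = 3). The response of the double mutant was 1.12 lower than that of Col (SE 0.20, adjusted p = 0.00104, limma), beside 2.58% of all probe sets called lower, and that of nph4-1 was 0.87 lower (SE 0.20, adjusted p = 0.0155), beside 1.67%. The second call ended without nph4-1 control 1 (-0.77, adjusted p = 0.0553) and in a fit of only the 12 arrays compared (adjusted p = 0.0871).

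In the double mutant the family split. Without IAA 3 of the 7 were higher and 3 lower than in Col, beside 7.03% of all probe sets called higher and 6.27% called lower. AT3G13650 rose by 0.88 (SE 0.13, adjusted p = 0.000106, limma), AT1G58170 by 0.62 (SE 0.14, adjusted p = 0.00536) and AT1G55210 by 0.48 (SE 0.16, adjusted p = 0.0493), the last of which ended in 22 of 32 alternatives. AT4G13580 was lower by 1.30 (SE 0.12, adjusted p = 6.59e-07), AT2G39430 by 0.83 (SE 0.10, adjusted p = 1.34e-05) and AT1G22900 by 0.60 (SE 0.15, adjusted p = 0.0126). With IAA 2 were higher and 4 lower, beside 10.6% and 9.37% of all probe sets, among them AT3G13650 at 1.07 (SE 0.13, adjusted p = 2.6e-06) and AT4G13580 at -1.36 (SE 0.12, adjusted p = 2.84e-08). AT3G13650 had a log2 signal of 10.14 ± 0.12 with IAA and 10.18 ± 0.10 without it in nph4-1 arf19-1, against 9.07 ± 0.21 and 9.30 ± 0.06 in Col. Without IAA, the call of AT1G22900 ended without Col control 1 or double-mutant control 2 or 3 (-0.52 to -0.42, adjusted p up to 0.0857). In a fit of the 6 arrays alone AT1G22900 (adjusted p = 0.127) and AT1G58170 (adjusted p = 0.101) did not pass. Like AT4G11210, AT4G13580 and AT2G39430 without IAA were also called lower in the double mutant than in nph4-1 (-0.97 and -0.765) and in arf19-1 (-1.42 and -1.05). Both were likewise called lower in the contrast with the sum of the single mutants (-1.10 and -0.99). These contrasts called 1.57%, 3.50% and 1.59% of all probe sets as lower.

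**Figure D5:**
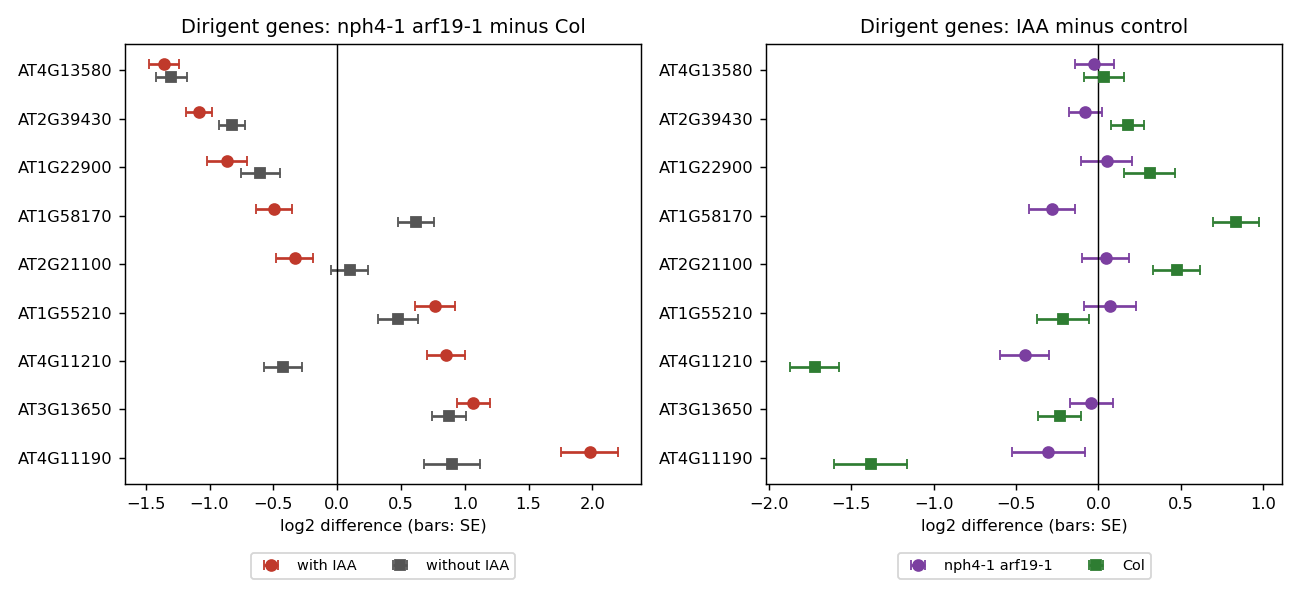
The 9 dirigent genes above the floor. Left, log2 difference of nph4-1 arf19-1 minus Col with IAA (red circles) and without IAA (grey squares); right, log2 change with IAA in nph4-1 arf19-1 (purple circles) and in Col (green squares); bars are SE. AT4G11190 and AT4G11210 have the lowest IAA changes in Col, -1.38 and -1.72, and AT4G11210 is the gene with values of -0.42 and 0.85 on the left.

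Markers of root tissues moved with the genotypes in part. Of 10 Casparian strip genes listed 2 had a probe set, and both were lower in the double mutant without IAA than in Col, GSO1, a receptor kinase that guards the closure of the strip, by 0.51 (SE 0.09, adjusted p = 0.000774, limma) and AT1G61590 by 1.06 (SE 0.21, adjusted p = 0.00205), beside the 6.27% of all probe sets called lower. Of 13 root markers 3 had a probe set. EXPA7, an expansin of root hairs, was 0.64 lower there (SE 0.19, adjusted p = 0.0306), against the same share, PYK10, an abundant beta-glucosidase of roots, had 0.11 (SE 0.08) and AT1G62500 had -0.42 (SE 0.23). The group means of these 3 markers ran from 6.56 to 12.99 over the 8 groups, so none was at the floor. Of 16 shoot markers 3 had a probe set, RCA, SBPASE and PRK of carbon fixation, and none passed in any contrast with limma. With IAA these markers were lower in the double mutant too, EXPA7 by 1.03 (adjusted p = 0.00039), AT1G61590 by 0.82 (adjusted p = 0.00869) and GSO1 by 0.29 (adjusted p = 0.0283), beside 9.37% of all probe sets, while PYK10 had 0.20 and AT1G62500 had 0.15. The difference of AT4G11210 from Col had the opposite sign to the 3 lower markers with IAA (0.85) and the same sign without it (-0.42), and that of AT4G11190 had the opposite sign in both treatments (1.98 with IAA, 0.90 without). With IAA the call of AT1G61590 ended without double-mutant IAA 2, and that of GSO1 without Col IAA 2 or 3 or double-mutant IAA 2 or 3 (adjusted p up to 0.104). GSO1 itself was called lower with IAA in Col (-0.31) and arf19-1 (-0.465), beside 6.52% and 5.22% of all probe sets. These calls held in 19 and 24 of the 24 fits without 1 array. Its mean in nph4-1 was 7.63 with IAA, against 7.65 in controls, and in the double mutant 7.02, against 7.12. The part of these markers in the levels of both genes was not tested, and in whole seedlings fewer cells of a type and less RNA per cell cannot be told apart. The call of EXPA7 ended without Col control 1 or 2 and without double-mutant control 2 or 3 (adjusted p up to 0.146). In a fit of the 6 arrays alone GSO1 (adjusted p = 0.0626), AT1G61590 (adjusted p = 0.082) and EXPA7 (adjusted p = 0.144) did not pass. Without IAA, GSO1 and AT1G61590 were also called lower in the double mutant than in nph4-1 (-0.53 and -0.90) and in arf19-1 (-0.785 and -1.37). The contrast with the sum of the single mutants called both lower as well (-0.81 and -1.21). Of all probe sets 1.57%, 3.50% and 1.59% were called lower in these contrasts. The last call of AT1G61590 held in 15 of 24 fits without 1 array.

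Genes that supply or use the substrates of dirigent proteins were thinly covered. Of 19 genes of monolignol synthesis 2 had a tested probe set. HCT, which makes the shikimate esters of the pathway, had -0.34 with IAA in Col (SE 0.19, adjusted p = 0.3, limma), and CCR2, a cinnamoyl-CoA reductase, left the floor on 3 arrays. None of the 2 passed in any contrast. Of 3 lignan genes, UGT71C1, a glucosyltransferase, was tested. It had -0.81 with IAA in Col (SE 0.28, adjusted p = 0.0617) and 0.91 in the double mutant against Col with IAA (SE 0.28, adjusted p = 0.0235), a call that ended without Col IAA 1 or 3 or double-mutant IAA 2 or 3 (adjusted p up to 0.128). The only laccase with a probe set, LAC16, was at the floor on all arrays.

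The genes with the pattern most like that of the pair were sought over the 8 group means, against the mean of both genes, among 7815 probe sets with 1 gene that were above the floor on at least 12 arrays. The 6 with the highest Pearson r were AT5G02170 (0.985), 2A6 (0.983), AT4G28100 (0.982), AT4G36640 (0.981), GSTU26 (0.980) and AT3G56370 (0.972). GSTU26, a tau-class glutathione transferase, had the widest range of group means among them, 2.01 in log2, with the lowest in Col IAA (7.24) and the highest in arf19-1 control (9.25). The others ranged over 0.70 to 1.24, against 2.33 for AT4G11190 and 2.29 for AT4G11210. In the double mutant GSTU26 had a mean of 8.44 with IAA, against 8.74 in controls. These r values describe 8 points chosen from many candidates and carry no test.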

How the data were processed

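The authors deposited 1 table of log2 signal for all arrays. Its lowest value on every array is the log2 of 50, and how the authors summarised and scaled the arrays is not given in the sources used here. The values were used as deposited, without a shift between arrays. Of 22810 probe sets, 64 controls and 6989 at the floor on all arrays were left out, and 15757 were tested. In the platform annotation 13513 probe sets have 1 gene, 503 have more and 8794 are not listed, and 13436 of the first were found in the RefSeq table (TAIR10.1), used for names and gene order.

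Group means of all 24 arrays were fitted with limma 3.58.1 in R 4.3.3 (lmFit, eBayes with trend and robust, 16 residual degrees of freedom), which was tested on simulated data. Tests are two-sided at an adjusted p of 0.05 by Benjamini-Hochberg within a contrast, and errors are standard errors of this fit unless marked SD. Contrasts against Col share its arrays, and those of both genes with IAA, planned with a test, are given without one because the Col IAA arrays entered the choice of the genes. That choice named no genotype. The arrays of the mutants may have entered it too, so tests of both genes between mutants may not be free of it. Same-numbered arrays deviated together (all 3 r over 0.1) in 8 of 28 pairs of groups, among them IAA and control of nph4-1 arf19-1 and of nph4-1, and nph4-1 arf19-1 and nph4-1 within each treatment. The numbers come from the labels and are taken to pair the arrays in these comparisons. The genes and all lists were chosen with earlier results of these data known. Named were both genes, all tested dirigent genes, called members of the other lists, neighbours within 5 genes and the 6 most alike genes. The planned search of promoters was not run. Alternatives were quantile normalization, equal medians, other filters on dim probe sets, plain eBayes, only the arrays compared, a replicate block, array quality weights and leaving out each array. The number of arrays limits the precision.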

Additional observations from a re-analysis of the deposited data

Results flagged for a closer look

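The IAA response of AT4G11210 differed between genotypes by a test of the difference itself (limma). The falls in the single mutants may have entered the choice of this gene, so the p-values may be too small. The log2 response of nph4-1 arf19-1 was 1.16 above that of nph4-1 (adjusted p = 0.0108) and 1.17 above that of arf19-1 (adjusted p = 0.00147), and in each case the 3 IAA arrays overlapped with the control arrays in the double mutant and lay below them in the single mutant.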

How the results depend on the processing

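Of 860 values of the 28 results with a test under another setting, 827 kept their direction and their side of the threshold. Of 704 values of the 22 results without a test, 699 kept their sign and moved by less than the replicate SD. The cause of the other changes was not tested. Many of these values could not change. Leaving out an array outside the groups compared, another filter on dim probe sets, plain eBayes, the block and a fit of only the arrays compared keep a difference of group means as it was. For a result with a test only its adjusted p can then move, so the counts do not measure how stable the results are. Adjusting over all probe sets but controls ended the call of AT4G11190 in nph4-1 against Col without IAA (0.95). A fit of only the arrays compared, which has fewer arrays, ended that call and that of AT4G11190 in nph4-1 arf19-1 against Col without IAA (0.90). AT4G11210 in nph4-1 against Col without IAA passed with the stricter filter on dim probe sets (0.57). With array quality weights AT4G11190 passed in nph4-1 arf19-1 against arf19-1 without IAA (0.54), against nph4-1 with IAA (0.57) and in its response against that of arf19-1 (0.57), AT4G11210 passed in nph4-1 arf19-1 against arf19-1 with IAA (0.28), the difference of the double mutant from the sum of the single mutants with IAA, which has no test, was -0.289 for AT4G11190, and 2 values near 0 turned sign, AT4G11190 in nph4-1 arf19-1 against nph4-1 without IAA (0.058) and AT4G11210 in the response of nph4-1 against arf19-1 (-0.020).

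Same-numbered arrays deviated together (r over 0.1) in 46 of 84 pairs of arrays, and 18 of 24 arrays correlated best with their own number. With the replicate number as a block, 21 of the 22 results with a test in this fit kept their side of the threshold, among them all in which the numbers pair the arrays. AT4G11210 in nph4-1 against Col without IAA, where they do not, passed (0.57). The block had the same replicate effects for all 24 arrays, Col included, so it was not a paired test between mutants. Same-numbered IAA arrays of Col and nph4-1 arf19-1 deviated in opposite directions (r -0.473 to -0.231).

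Leaving out 1 array changed a call or a sign for the following. Without IAA against Col, AT4G11190 ranged over 0.76 to 1.22 in nph4-1, 0.30 to 0.77 in arf19-1 and 0.713 to 1.175 in nph4-1 arf19-1, and AT4G11210 over 0.46 to 0.73, 0.39 to 0.67 and -0.55 to -0.25. AT4G11190 in nph4-1 arf19-1 against nph4-1 without IAA had -0.11 to 0.079. The response of AT4G11210 had -0.058 to 0.060 in nph4-1 against arf19-1, -0.048 to 0.23 in nph4-1 against Col and -0.058 to 0.22 in arf19-1 against Col. Of the 78 calls of other genes, 2315 of 2496 values kept the call and none turned sign, a count with the same limit as those above. Over the 11 tested contrasts the number of all probe sets called was 0.83 to 5.4 times the main count with array quality weights, 0.01 to 1.54 times with only the arrays compared, 0.61 to 0.89 times over all probe sets and 1.04 to 1.56 times with the block. For nph4-1 against Col without IAA it was 359, against 23 with only the arrays compared, 1352 without Col control 2 and 111 without nph4-1 control 3.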
